A study of Mus musculus with 2 samples.

Results

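In cells of the mouse mitral valve, 9 integrin genes of leukocytes were examined, namely Itgb2, Itgam, Itgax, Itgal, Itga4, Itgb7, Itgae, Itgb3 and Itgb8. They were found by gene symbol, 9 of the 32285 features of each count matrix, and all 9 were present. The cells came from wild-type mice (WT, Fbn1+/+ littermates) and from Fbn1 mgR/mgR mice, which carry 2 copies of a hypomorphic allele that lowers fibrillin-1, both 12 weeks old and on a C57BL/6J background by the study methods. Leaflets had been digested with collagenase A and elastase, viable cells had been sorted, and 1 library per genotype had been made with the 10x Genomics 3' chemistry. A legend of the study gives n = 3 for these valves, but the labels tie no cell to an animal. With 1 library per genotype there was no test and no P value, and the intervals below are 95% intervals that cover counting error of unique molecular identifiers (UMIs) only.

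Integrins are receptors made of an α and a β chain that join a cell to other cells or to the matrix. The β2 chain, encoded by Itgb2, pairs with αL (Itgal) to make LFA-1, with αM (Itgam) to make Mac-1, also known as CD11b/CD18, and with αX (Itgax) to make CD11c/CD18. LFA-1 binds ICAM-1, and Mac-1 and CD11c/CD18 also bind complement fragments and fibrinogen. The α4 chain (Itga4) pairs with β1 to bind VCAM-1 and fibronectin, or with β7 (Itgb7) to bind MAdCAM-1, the addressin of gut venules. Another partner of β7 is αE (Itgae, CD103), and that pair binds E-cadherin. The β3 (Itgb3) and β8 (Itgb8) chains pair with αv. The former binds vitronectin, osteopontin and other proteins with an RGD motif and, with αIIb, is the fibrinogen receptor of platelets. The latter binds latent TGF-β.

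The WT library gave 875 cells with a median of 5033 UMIs and the mgR library 3438 cells with a median of 7370 UMIs. Macrophages were cells with at least 10 UMIs of C1qa, C1qb and C1qc, dendritic cells those with at least 2 of Cd209a or of Xcr1 and Clec9a, T cells those with at least 2 of Cd3e, Cd3d and Cd3g, and neutrophils those with at least 10 of S100a8 and S100a9. A cell had to meet exactly 1 of these rules. This gave 225 WT and 1552 mgR macrophages, 38 and 126 dendritic cells, 89 and 156 T cells, and 17 and 41 neutrophils. All 6 markers of its own type that the rules did not use were detected in each type of each library. Among cells that met no leukocyte rule, fibroblasts had at least 20 UMIs of Col1a1, Col1a2, Col3a1 and Dcn. Endothelial cells had at least 3 of Cdh5, Kdr and Egfl7 and were not fibroblasts. The 33 and 97 cells that met none of these rules and had at least 2 UMIs of Ptprc, the gene of CD45, are called other Ptprc cells. No barcode was shared between the kept cells of the libraries. Both libraries went against the methods in 1 respect. Only male mice are named there for comparisons, yet 28.1% of WT and 60.8% of mgR cells held UMIs of Xist, a transcript of female cells, and none of the Y-linked genes Ddx3y, Uty, Kdm5d and Eif2s3y, while 38.5% and 21.1% held Y-linked UMIs and none of Xist. The former are called Xist-only cells and the latter Y-only cells. Their shares differed between the libraries, so several results for the integrin genes examined are given below within each kind as well. Other genes were not divided in this way.

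In GRCm38 with the GENCODE M21 annotation, all 9 are protein-coding genes. Itgal (7:127296260-127335138), Itgam (7:128062640-128118491) and Itgax (7:128129547-128150657) lie on the plus strand of chromosome 7, and Itgb2 is on chromosome 10 from 77530252 to 77565708. Itga4 is on chromosome 2 (79255426 to 79333123), Itgb7 on chromosome 15 (102215995 to 102231944), Itgae on chromosome 11 (73090583 to 73147446), Itgb3 on the same chromosome (104608000 to 104670476) and Itgb8 on chromosome 12 (119158022 to 119238802). Itgb7 and Itgb8 are on the minus strand. A gene model named Gm49368 overlaps Itgam on the same strand. Its gene ID was not among the features of the count matrices, so that UMIs of the overlap cannot be divided between the gene model and Itgam. Cerkl overlaps Itga4, and Haspin lies within Itgae, both on the opposite strand. Cerkl had 9 WT and 76 mgR UMIs and Haspin 5 and 40.

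Promoter sequences of 5 of the 9 genes were at hand from RefSeq (GRCm38.p6, 250 bases before to 50 bases after the gene start). The 3 windows below are shown because their genes mark different leukocytes in the results that follow: Itgam macrophages and neutrophils, Itgax dendritic cells, and Itgb7 T cells and dendritic cells. Capitals mark the letters GAGGAA, the core bound by PU.1, or TGTGGT, the core bound by Runx factors, on either strand.
Itgam, chr7:128062390-128062689, plus strand: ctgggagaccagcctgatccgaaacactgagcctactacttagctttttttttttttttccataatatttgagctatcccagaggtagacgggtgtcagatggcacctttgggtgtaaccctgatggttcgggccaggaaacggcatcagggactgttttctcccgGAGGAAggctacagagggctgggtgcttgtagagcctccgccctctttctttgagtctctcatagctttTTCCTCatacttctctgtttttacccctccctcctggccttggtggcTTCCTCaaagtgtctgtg
Itgax, chr7:128129300-128129599, plus strand: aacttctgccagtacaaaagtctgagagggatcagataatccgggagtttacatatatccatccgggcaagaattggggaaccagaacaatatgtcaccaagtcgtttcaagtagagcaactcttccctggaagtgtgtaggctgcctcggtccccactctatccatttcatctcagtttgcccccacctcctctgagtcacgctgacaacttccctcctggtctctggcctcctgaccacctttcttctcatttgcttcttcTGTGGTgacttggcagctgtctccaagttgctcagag
Itgb7, chr15:102231886-102232185, minus strand: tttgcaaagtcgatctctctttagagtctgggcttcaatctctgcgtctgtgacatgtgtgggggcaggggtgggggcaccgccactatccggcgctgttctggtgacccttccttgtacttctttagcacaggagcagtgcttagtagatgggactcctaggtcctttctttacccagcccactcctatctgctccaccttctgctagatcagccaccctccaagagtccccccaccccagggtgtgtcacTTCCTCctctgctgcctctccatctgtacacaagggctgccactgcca
The Itgam window held GAGGAA 3 times, the Itgax window held TGTGGT once and the Itgb7 window held GAGGAA once. Of all 32851 promoter windows, 28.3% held GAGGAA and 16.8% held TGTGGT, and a match describes letters only. The Itga4 window held TGTGGT once and the Itgb8 window held neither.

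In both libraries 7 of the 9 genes were transcripts of leukocytes. The 4 types, the other Ptprc cells and cells meeting several rules together held 97.4% of the Itgb2 UMIs of the WT library and 98.6% of those of the mgR library. The same classes held 96.5% and 99.0% for Itgam, 94.8% and 98.4% for Itgax, 93.5% and 96.6% for Itgal, 91.3% and 94.3% for Itga4, 92.0% and 95.4% for Itgb7, and 93.8% and 96.8% for Itgae. Itgb3 was mixed, with 86.8% of its WT UMIs but 44.7% of its mgR UMIs in leukocytes. Itgb8 was found in fibroblasts, which held 92.7% and 89.5% of its UMIs.

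**Figure D1:**
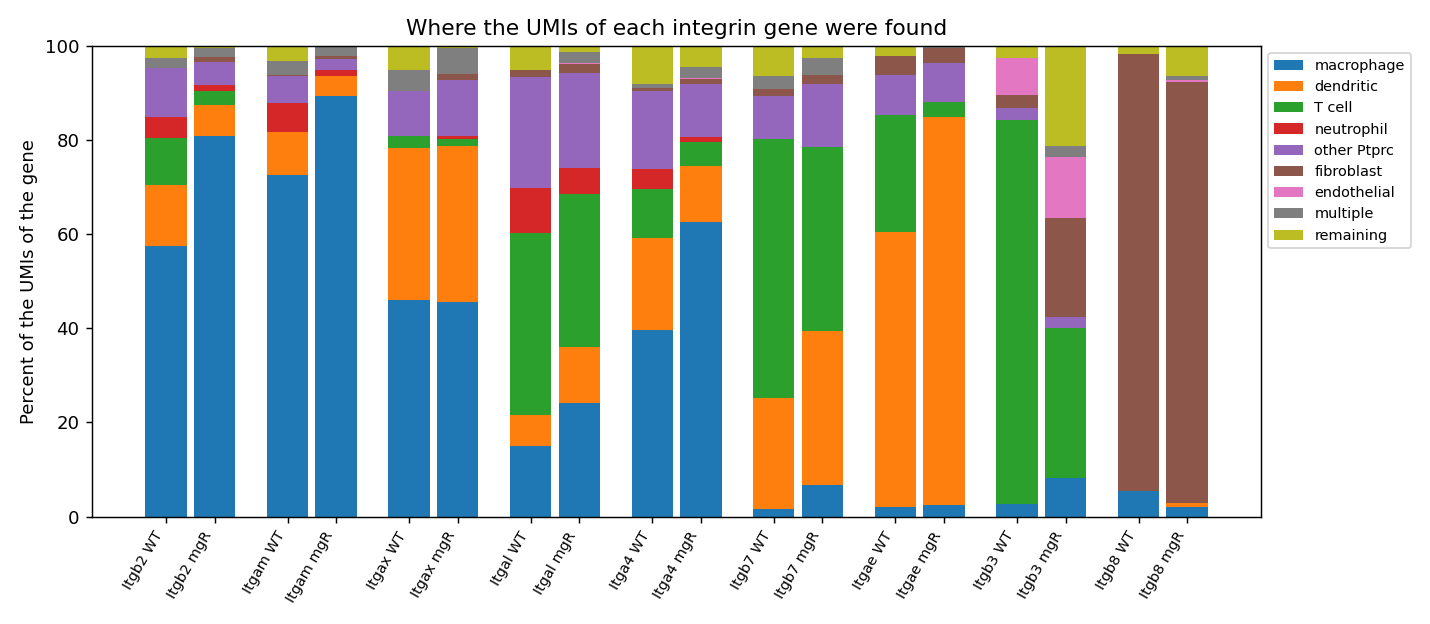
Stacked bars give, for each integrin gene and library, the percent of its UMIs found in each class of cells; "multiple" are cells that met several leukocyte rules and "remaining" are cells that met no rule. Macrophages held 72.5% of WT and 89.3% of mgR Itgam UMIs, whereas fibroblasts held most UMIs of Itgb8.

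Levels are UMIs per 1000000 UMIs of the class (CPM). UMIs count 3' ends of transcripts, so levels were compared between types for 1 gene at a time, not between genes. Itgb2 was measured in every leukocyte type. Its level was highest in neutrophils, with 558 CPM (WT) and 373 CPM (mgR), next in macrophages with 214 and 203, then in dendritic cells with 203 and 155, and lowest in T cells with 136 and 106. Neutrophils exceeded macrophages 2.61-fold among WT cells (1.66 to 3.93) and 1.83-fold among mgR cells (1.31 to 2.49). Macrophages and dendritic cells were not told apart in the WT library (ratio 1.05, 0.810 to 1.38) but were in the mgR library (1.32, 1.15 to 1.51).

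The partner chains of β2 divided the leukocytes. Itgam stood at 514 and 336 CPM in neutrophils (WT and mgR), 185 and 213 in macrophages and 98.7 and 93.0 in dendritic cells. WT T cells held 0 Itgam UMIs, a count that allows 7.70 CPM, and mgR T cells held 3. Itgax was highest in dendritic cells (107 and 124.8 CPM), with 36.4 and 18.6 in macrophages. Dendritic cells exceeded macrophages 2.95-fold in the WT library (1.88 to 4.57). Itgal was highest in neutrophils (424 and 218 CPM) and T cells (198 and 150.2), followed by dendritic cells (37.7 and 35.3) and macrophages (20.6 and 7.77). T cells exceeded dendritic cells 5.24-fold (2.89 to 10.3) and 4.26-fold (3.08 to 5.97), whereas the order of neutrophils and T cells was not resolved in the mgR library (1.45, 0.901 to 2.25).

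The same UMI sums were also expressed as shares of the 3 α chains within a type, which is not a second measurement. Such shares set UMIs of different genes side by side, so they describe UMIs and not amounts of receptor. Of the UMIs of the 3 α chains that pair with β2, Itgam made up 76.4% in WT macrophages (71.6 to 80.8) and 89.0% in mgR macrophages (87.8 to 90.0). Itgal made up 96.3% and 92.2% in T cells. In dendritic cells Itgax made up 44.0% and 49.3% and Itgam 40.5% and 36.7%. Neutrophils were shared between Itgam (54.8% and 57.8%) and Itgal (45.2% and 37.5%), with 0 and 3 UMIs of Itgax.

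Itga4, the α chain that binds VCAM-1 with β1, was found in all 4 types. Its level was 313 and 209 CPM in neutrophils, 194 and 183 in dendritic cells, 93.5 and 105 in macrophages and 92.4 and 123 in T cells. The neutrophil value rested on 14 and 23 UMIs and did not differ from that of dendritic cells beyond counting error in either library. Macrophages and T cells did not differ either (WT ratio 1.01, 0.696 to 1.505).

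Itgb7, in contrast, was nearly confined to T cells and dendritic cells among these 4 types. It stood at 264 and 323 CPM in T cells and 128 and 173 in dendritic cells, against 2.06 and 3.89 in macrophages and 0 UMIs in neutrophils of either library. T cells exceeded dendritic cells 2.07-fold (1.44 to 3.02) and 1.87-fold (1.57 to 2.21). Itgae was highest in dendritic cells, with 81.3 and 140.4 CPM, against 30.8 and 8.46 in T cells and at most 0.688 in macrophages.

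Itgb3 was a T cell transcript among leukocytes. T cells held 31 of the 38 WT UMIs, at 79.6 CPM, and 27 of the 85 mgR UMIs, at 28.6 CPM. Macrophages held 1 and 7 UMIs, and dendritic cells and neutrophils 0. Endothelial cells held 3 and 11 (28.8 and 11.97 CPM). At least 2 UMIs of the platelet markers Ppbp, Gp9, Gp1bb and Treml1 were held by 0 WT and 4 mgR cells outside the 4 types, and 7 of the 85 mgR Itgb3 UMIs lay in 2 of these cells. Itgb8 was at 28.6 CPM in fibroblasts of both libraries (51 and 221 UMIs, ratio 1.002, 0.736 to 1.39). In macrophages it had 3 and 5 UMIs and in T cells and neutrophils 0.

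**Figure D2:**
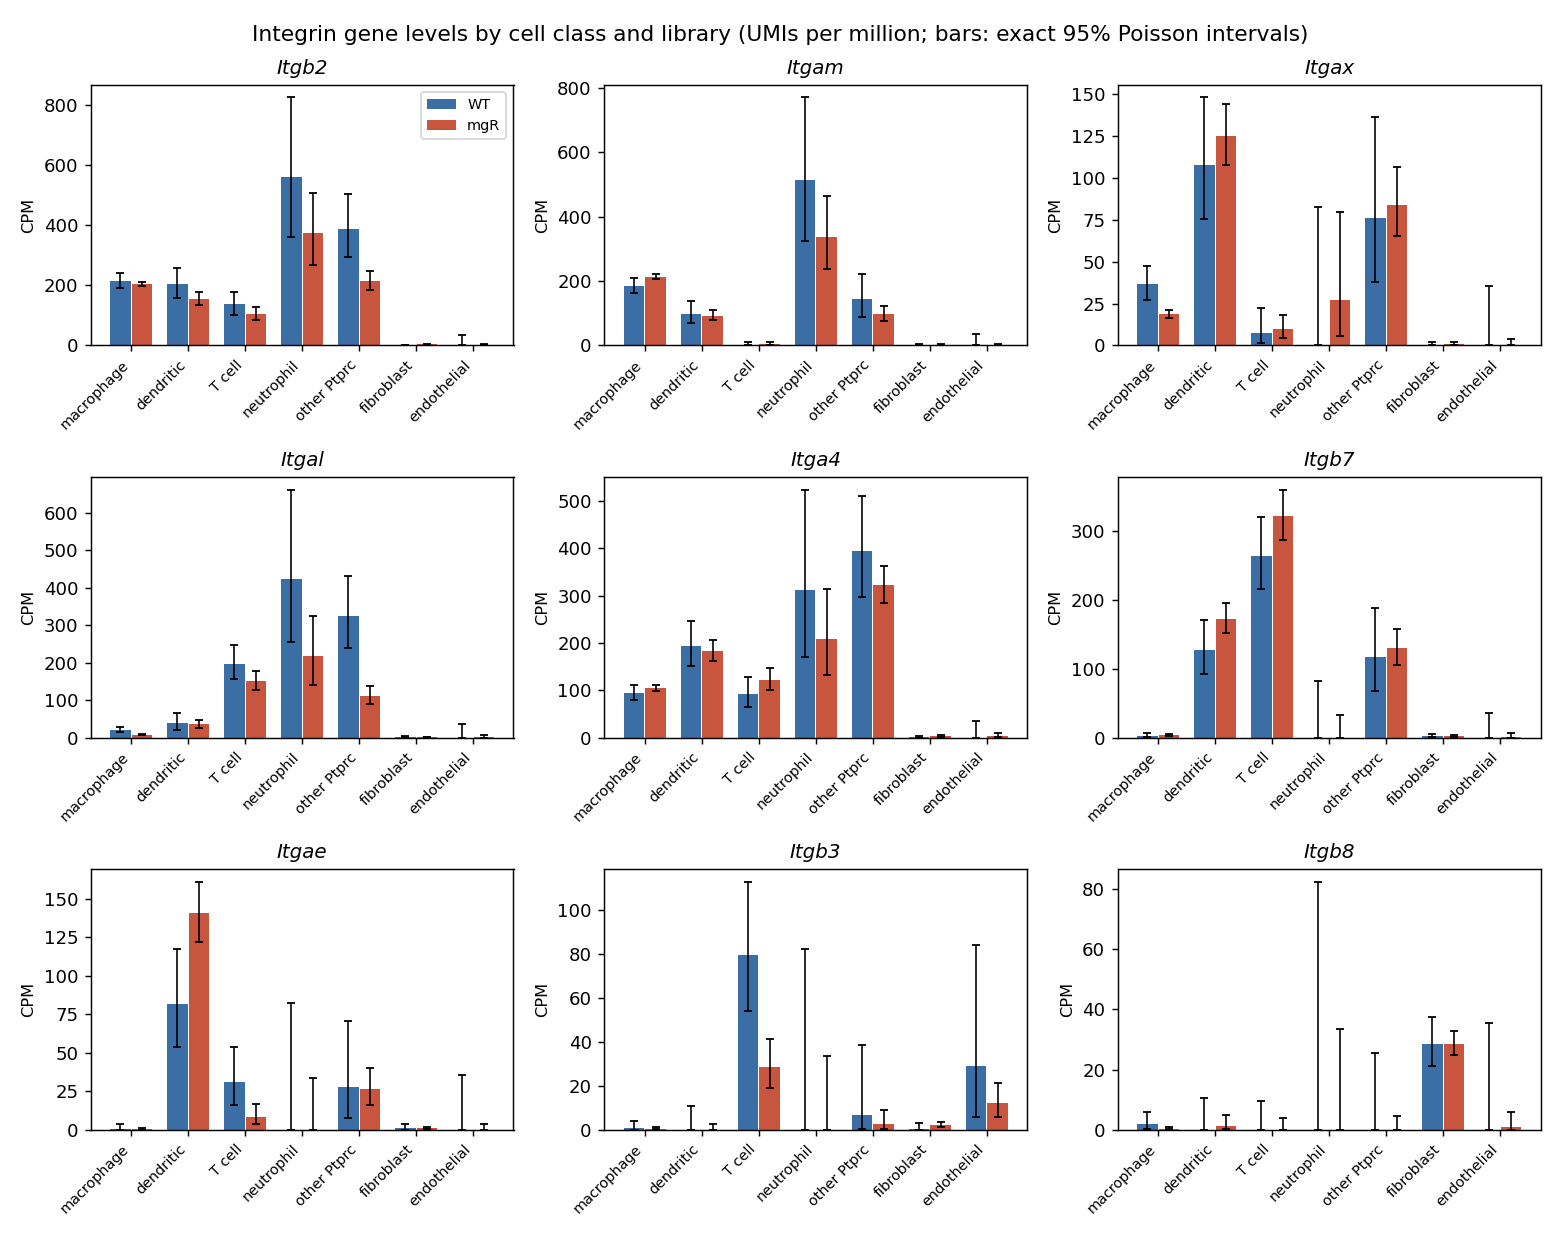
Bars give the level of each integrin gene in CPM for 7 classes of cells in the WT (blue) and mgR (red) libraries, with exact Poisson 95% intervals of the UMI sums as error bars; each panel has its own axis from 0. Itgb7 stands at 264 and 323 CPM in T cells against 2.06 and 3.89 in macrophages, and Itgb8 stands at 28.6 CPM in fibroblasts of both libraries.

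Free RNA can place UMIs in cells that do not express a gene, so the share of cells with a UMI was set beside that of fibroblasts after every cell had been thinned to 2000 UMIs. Cells with fewer UMIs were left out, 6 and 22 macrophages, 6 and 2 T cells, no dendritic cell, 6 and 23 neutrophils and 20 and 17 fibroblasts. At this depth Itgb2 was seen in 31.1% of WT and 31.4% of mgR macrophages (64.0% and 73.4% unthinned, at median depths of 6009 and 8353 UMIs). In fibroblasts it was seen in 0 of 309 WT cells, a count that allows 0.971%, and in 0.471% of mgR cells (median depths of 5296 and 6678 UMIs). Itgb7 was seen in 47.0% and 51.3% of T cells (69.7% and 80.1% unthinned) against 0.324% and 0.188% of fibroblasts. Itgb7 was seen in 0.457% of WT and 0.915% of mgR macrophages, and these intervals (0.0116 to 2.52 and 0.501 to 1.53) overlapped those of fibroblasts (0.00819 to 1.79 and 0.0228 to 0.679). Among mgR macrophages it was seen in 2.35% of cells that had no UMI of Lyve1, Folr2 and Cd163, in 0.295% of cells that had at least 2, and in 3 of the 25 cells that had at least 2 UMIs of the monocyte genes Ly6c2, Plac8 and Chil3. The low level of Itgb7 in macrophages was thus uneven between subsets. Itgae in macrophages, 0 of 219 WT cells (which allows up to 1.37%) and 0.131% of mgR cells, lay no higher than in fibroblasts and was read as background.

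The chains of known pairs were also sought in single cells, beside the product of their separate shares. After thinning, Itgam and Itgb2 were both seen in 12.8% of WT macrophages (8.67 to 17.9) and 10.7% of mgR macrophages (9.15 to 12.3), with products of 8.65% and 9.70%. Itgal and Itgb2 were both seen in 6.02% and 7.79% of T cells (products 6.90% and 5.62%) and in 1.83% and 0.196% of macrophages (1.56% and 0.369%). For Itga4 and Itgb7 the shares were 6.02% and 4.55% of T cells (products 6.79% and 6.33%) and 10.5% and 7.14% of dendritic cells (8.73% and 8.31%). Itgae and Itgb7 were found together in 2.63% and 4.76% of dendritic cells (products 1.87% and 5.54%), and before thinning in 7 of 38 WT and 44 of 126 mgR cells. Itgav and Itgb3 were found together in 9 of 89 WT and 7 of 156 mgR T cells before thinning, and in 6.02% and 1.95% after it, on 5 and 3 cells, with products of 1.60% and 0.607%. The WT interval (1.99 to 13.5) left out the product and the mgR interval (0.404 to 5.59) held it. These pairs are counts of transcripts in 1 cell and not of receptors at its surface.

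The libraries were then compared within each type. A gene was counted as higher or lower when its level differed at least 1.5-fold and it had at least 10 UMIs over both libraries. In macrophages 6 of the 9 genes had that many UMIs, and 1 was higher and 2 were lower in the mgR library. By the same rule 31.2% of 12226 genes passed in macrophages, 20.8% as higher and 10.3% as lower. In dendritic cells 1 of 7 was higher and 0 were lower (all genes 39.1%, with 23.4% higher and 15.7% lower). In T cells 0 of 7 were higher and 2 were lower (36.8%, with 16.9% higher and 19.9% lower). In neutrophils 0 of 4 were higher and 2 were lower (57.7%, with 34.7% higher and 23.0% lower). With 4 to 7 genes counted in a type, no share was read as a departure from its background. The median log2 ratio of mgR to WT over the counted genes was 0.04 in macrophages (all genes 0.08), -0.09 in dendritic cells (-0.03), -0.37 in T cells (-0.10) and -0.61 in neutrophils (0.01).

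In macrophages Itgb2 was level between the libraries, at 214 CPM from 311 WT UMIs and 203 CPM from 2774 mgR UMIs (ratio 0.951, 0.846 to 1.07). Itgam was a little higher in the mgR library, at 213 against 185 CPM (1.15, 1.01 to 1.31). Itga4 gave 105 against 93.5 CPM (1.12, 0.939 to 1.35). The genes of CD11c and LFA-1 were lower. Itgax stood at 36.4 CPM (53 UMIs) in WT and 18.6 CPM (254 UMIs) in mgR macrophages, a ratio of 0.511 (0.379 to 0.701). Itgal stood at 20.6 CPM (30 UMIs) and 7.77 CPM (106 UMIs), a ratio of 0.377 (0.249 to 0.586). Their intervals did not overlap between the libraries. Itgb7 passed the fold with 3 and 53 UMIs, but the interval of its ratio held 1 (1.88, 0.611 to 9.43).

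Both differences were past counting error in Xist-only cells and not in Y-only cells, a contrast that was not itself tested. In 77 WT and 1049 mgR macrophages of the first kind the Itgax ratio was 0.240 (0.168 to 0.352) and the Itgal ratio 0.233 (0.129 to 0.449). In 87 and 296 macrophages of the second kind they were 0.990 (0.506 to 2.12) and 0.721 (0.331 to 1.74), with 11 and 9 WT UMIs. Itgam divided likewise, higher in the mgR library in the first kind (1.63, 1.27 to 2.14) and not in the second (0.904, 0.754 to 1.09). Itga4 was higher in the second kind (1.46, 1.08 to 2.003) and not in the first (0.987, 0.743 to 1.34). Sex, animal and genotype cannot be told apart in these values.

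**Figure D3:**
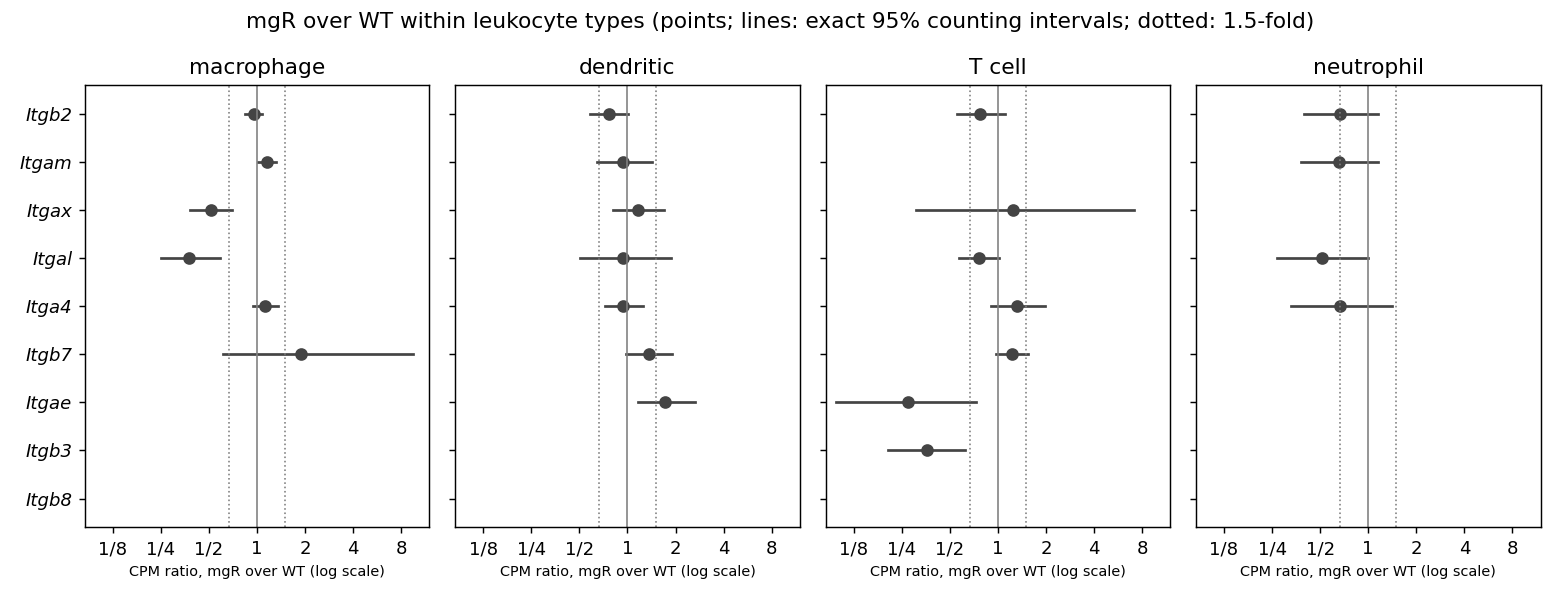
Points give the CPM ratio of mgR to WT on a log scale for each integrin gene with at least 10 UMIs in the type and UMIs in both libraries, lines the exact 95% counting intervals, and dotted lines the 1.5-fold limits. In macrophages Itgax and Itgal lie at 0.511 and 0.377, left of the dotted line with intervals that leave out 1, and in T cells Itgae and Itgb3 lie at 0.275 and 0.359.

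**Figure D4:**
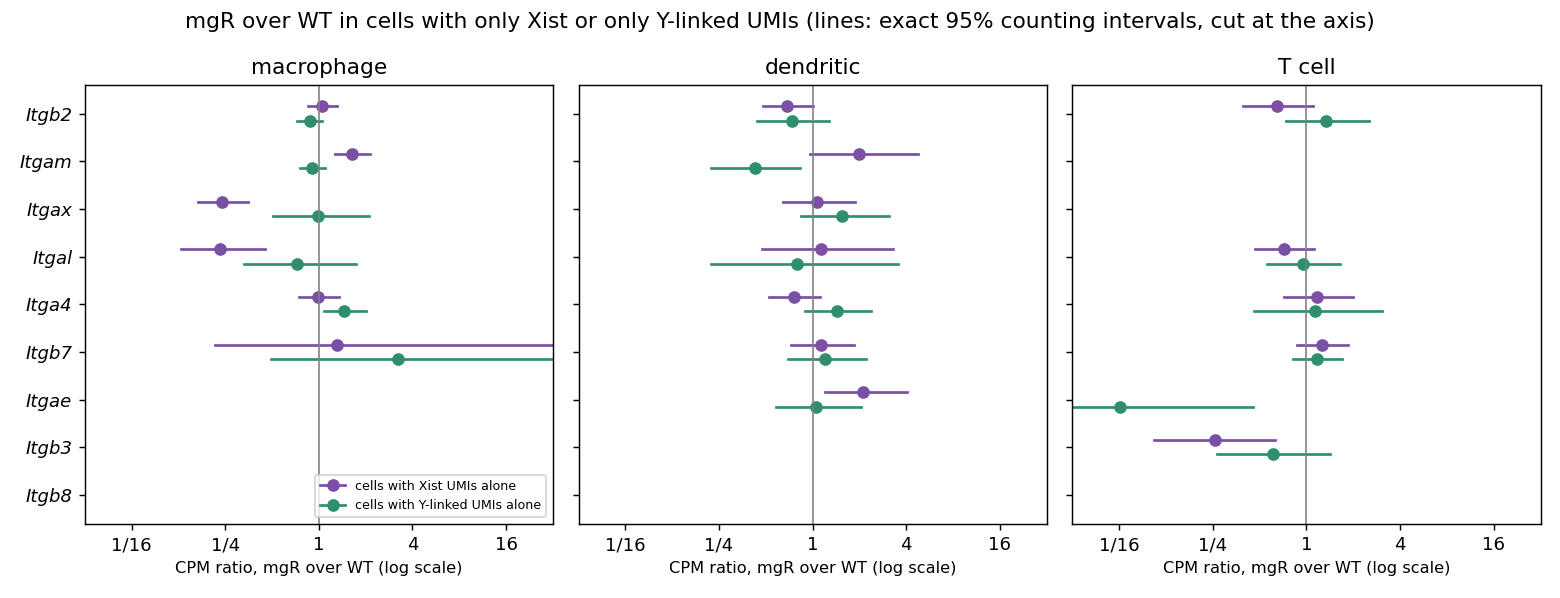
Points give the CPM ratio of mgR to WT on a log scale within Xist-only (purple) and Y-only (green) cells, for 3 leukocyte types, with exact 95% counting intervals as lines. For Itgax in macrophages the purple point lies at 0.240 and the green point at 0.990.

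Macrophages were then divided by Lyve1, Folr2 and Cd163, genes of resident tissue macrophages. Cells with at least 2 UMIs of these genes made up 41.8% of WT (35.3 to 48.5) and 66.4% of mgR macrophages (64.0 to 68.8), and cells with none 52.9% and 27.8%. At 2000 UMIs per cell, cells with at least 1 such UMI made up 42.0% and 63.5%. Itgax and Itgal were nearly absent from the Lyve1, Folr2 or Cd163 subset. That subset held 1 and 11 UMIs of Itgax (1.58 and 1.17 CPM) against 52 and 225 UMIs in cells with none (68.2 and 63.0 CPM). For Itgal it held 0 and 22 UMIs (0 and 2.34 CPM) against 30 and 81 (39.4 and 22.7 CPM). With 3 counts allowed for the count of 0, WT Itgal was 8.31-fold higher in cells with none. The interval of that ratio, from the counts as they were, began at 6.35.

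Within the cells that had none of the 3 genes, Itgax was level between libraries (ratio 0.924, 0.681 to 1.27) and Itgal was lower in the mgR library (0.576, 0.375 to 0.908). By kind of cell the Itgax ratio was 0.514 (0.358 to 0.757) among Xist-only and 1.68 (0.827 to 3.78) among Y-only cells. The Itgal ratio was 0.419 (0.228 to 0.821) among Xist-only and 0.935 (0.407 to 2.33) among Y-only cells, with 14 and 9 WT UMIs. Itgam, the gene of the Mac-1 α chain, was higher in the mgR library in cells with none, at 174 against 105 CPM (1.66, 1.31 to 2.12), and lower in the Lyve1, Folr2 or Cd163 subset, at 229 against 272 CPM (0.843, 0.721 to 0.990). Itga4 was higher in cells with none (127 against 86.6 CPM, 1.46, 1.13 to 1.92) and not in the other subset (0.916, 0.713 to 1.20). Monocyte genes were counted over all macrophages, not by subset. Ly6c2, Plac8 and Chil3 had 0 UMIs in WT macrophages and 268, 262 and 55 in mgR macrophages, while Ccr2 stood at 35.8 and 31.8 CPM. Together these 4 genes summed to 35.8 and 74.7 CPM in macrophages. In fibroblasts they had 0 WT UMIs and 361 mgR UMIs (46.8 CPM), and the part of free RNA was not tested. Macrophages with at least 2 UMIs of Ly6c2, Plac8 and Chil3 were 0 of 225 WT and 25 of 1552 mgR cells. Itga4 stood at 177 CPM and Itgam at 169 CPM in these mgR cells, and their part in the differences was not tested. With subsets set and measured at 2000 UMIs per cell, the ratios in cells with none were 1.61 for Itgam (1.07 to 2.51), 0.715 for Itgax (0.385 to 1.41), 0.298 for Itgal (0.136 to 0.666) and 1.35 for Itga4 (0.878 to 2.15). In the other subset at this depth the Itgam ratio was 0.745 (0.560 to 1.01), an interval that held 1.

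For Itgb2, the shared β2 chain, the intervals over all cells of a subset held 1 in both subsets. It stood at 227 and 213 CPM in the Lyve1, Folr2 or Cd163 subset (ratio 0.936, 0.790 to 1.12) and at 211 and 186 CPM in cells with none (0.879, 0.739 to 1.05). Within the Lyve1, Folr2 or Cd163 subset the ratio was 1.03 (0.735 to 1.49) in Xist-only cells. In Y-only cells of that subset it was 0.755 (0.598 to 0.963), an interval that left out 1. In cells with none the ratios were 0.881 (0.668 to 1.18) and 1.04 (0.765 to 1.43).

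Dendritic cells were divided into cells with Cd209a, a gene of type 2 conventional and monocyte-derived dendritic cells, and cells with Xcr1 or Clec9a, genes of type 1 conventional dendritic cells, which present antigen of dead cells. The latter made up 8 of 38 WT (21.1%, 9.55 to 37.3) and 52 of 126 mgR dendritic cells (41.3%, 32.6 to 50.4). Itgae belonged to the Xcr1 or Clec9a cells, with 27 of the 28 WT UMIs (312 CPM) and 182 of the 207 mgR UMIs (274 CPM), against 3.88 and 30.9 CPM in Cd209a cells. Over all dendritic cells Itgae was higher in the mgR library, at 140.4 CPM from 207 UMIs against 81.3 CPM from 28 UMIs (1.73, 1.16 to 2.66). Of the 28 WT UMIs, 85.7% lay in 5 cells. Within the Xcr1 or Clec9a cells the ratio was 0.879 (0.584 to 1.37). Within the Cd209a cells it was 7.97 (1.30 to 327), from 1 WT UMI and 25 mgR UMIs in 8 cells. In Xist-only cells the ratio over all dendritic cells was 2.11 (1.20 to 4.07), and in Y-only cells it was 1.06 (0.579 to 2.04). After thinning to 2000 UMIs, 7.89% of WT and 17.5% of mgR dendritic cells held an Itgae UMI (21.1% and 42.1% unthinned).

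Itgam, the αM gene, lay on the other side. It had 0 UMIs in the Xcr1 or Clec9a cells of either library and 34 and 137 UMIs in the Cd209a cells (132 and 169 CPM). The latter levels were 3.80-fold and 37.5-fold higher when 3 counts are allowed for a count of 0. Intervals of the Itgam ratio of Xcr1 or Clec9a to Cd209a cells ended at 0.342 and 0.0333. The Itgam level over all dendritic cells was 98.7 and 93.0 CPM (0.942, 0.643 to 1.41). In the 2 kinds of cells by sex-linked UMIs the Itgam ratio was 1.99 (0.965 to 4.76) when Xist-only and 0.427 (0.222 to 0.829) when Y-only. Itgax was higher in Cd209a cells, with 140 against 11.6 CPM in the WT library and 156 against 87.3 CPM in the mgR library. The WT value of 11.6 CPM was 1 UMI in 8 cells. Itgb2 stood at 312 and 158 CPM in the Xcr1 or Clec9a cells (0.507, 0.329 to 0.805) and at 167 and 152 in the Cd209a cells (0.911, 0.639 to 1.32). The former difference rested on 27 WT UMIs in 8 cells. Itga4 and Itgb7 did not differ between the subsets beyond counting error in either library, nor between the libraries over all dendritic cells (Itga4 0.942, 0.719 to 1.25, and Itgb7 1.35, 0.981 to 1.91).

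Most T cells held transcripts of the γδ receptor. Cells with at least 1 UMI of Trdc or of a γ chain constant gene made up 77.5% of WT (67.4 to 85.7) and 62.8% of mgR T cells (54.7 to 70.4), counted without thinning. The integrins divided the subsets. Itga4 stood at 38.4 and 38.6 CPM in γδ cells and at 243 and 284 CPM in the others, a ratio of 0.158 (0.0703 to 0.334) among WT cells and 0.136 (0.0830 to 0.215) among mgR cells. Itgb7 stood at 300.2 and 349 CPM in γδ cells against 165 and 272 in the others, and the interval of the ratio left out 1 in the WT library (1.82, 1.07 to 3.27) but not in the mgR library (1.29, 0.999 to 1.67). Itgb3 was higher in γδ cells of the WT library (101 against 19.4 CPM, 5.22, 1.32 to 45.1), and in the mgR library, at 35.4 against 15.4 CPM, the interval held 1 (2.29, 0.848 to 7.75).

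**Figure D5:**
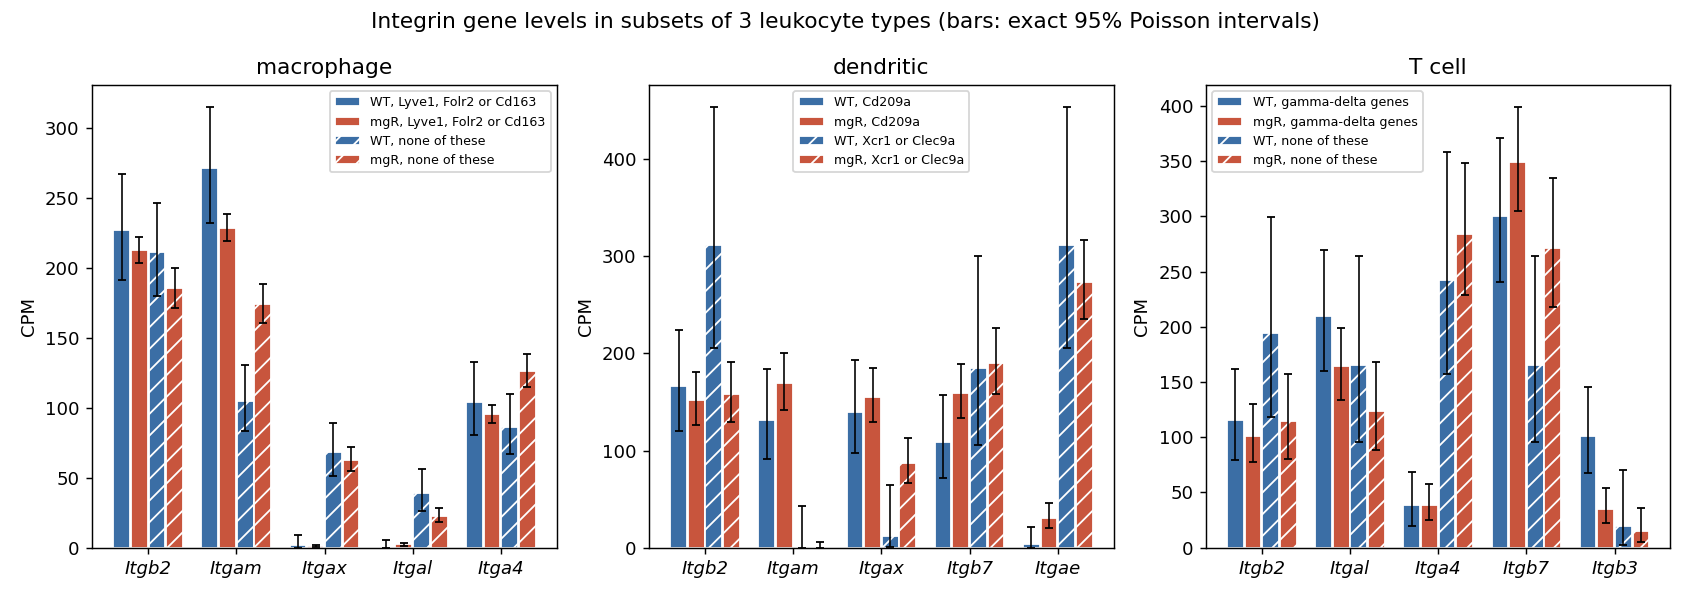
Bars give levels in CPM of 5 integrin genes in subsets of macrophages, dendritic cells and T cells, plain and hatched for the 2 subsets named in each legend, in the WT (blue) and mgR (red) libraries, with exact Poisson 95% intervals. Itgax and Itgal stand in the hatched macrophage subset, Itgae stands in the hatched dendritic subset at 312 and 274 CPM, and Itga4 is low in γδ T cells at 38.4 and 38.6 CPM.

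Between the libraries, Itgb3 was lower in mgR T cells, at 28.6 CPM from 27 UMIs against 79.6 CPM from 31 UMIs (0.359, 0.206 to 0.621). It was lower within γδ cells as well (101 and 35.4 CPM, 0.350, 0.192 to 0.630). The ratio was 0.259 (0.105 to 0.627) in Xist-only T cells and 0.610 (0.266 to 1.41) in Y-only T cells. After thinning, 12.05% of WT and 7.79% of mgR T cells held an Itgb3 UMI (28.1% and 15.4% unthinned) against 0.324% and 0.188% of fibroblasts. Its partner Itgav went the same way in T cells, at 44.4 against 84.7 CPM (0.524, 0.325 to 0.854). This was not particular to T cells, as Itgav was also lower in mgR macrophages (0.675), in mgR fibroblasts (0.776) and over all mgR cells (0.756, 0.690 to 0.830). In endothelial cells its ratio was 0.956, with an interval that held 1. Itgae was lower in mgR T cells, at 8.46 against 30.8 CPM (0.275, 0.0974 to 0.731), on 12 WT UMIs in 6 cells and 8 mgR UMIs in 6 cells. Of other cell types, 6 dendritic cell markers summed to 33.4 CPM in WT and 517 CPM in mgR T cells, of which H2-Ab1, a gene that B cells also express, made 432 of 489 mgR UMIs, with Flt3 at 2 and Clec10a at 0. The B cell genes Cd79a and Ms4a1 had 0 UMIs in WT T cells and 73 and 26 in mgR T cells, and the part of these cells in the T cell values was not tested. The other counted members did not reach the fold in T cells. Itgal stood at 198 and 150.2 CPM (0.760, 0.572 to 1.02), Itgb7 at 264 and 323 (1.22, 0.973 to 1.54), Itga4 at 92.4 and 123 (1.33, 0.907 to 1.99) and Itgb2 at 136 and 106 (0.778, 0.552 to 1.11).

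Neutrophils gave few UMIs, 44781 in all from 17 WT cells and 110000 from 41 mgR cells. All 4 counted genes had lower values in the mgR library, with ratios of 0.668 for Itgb2 (0.396 to 1.15), 0.655 for Itgam (0.379 to 1.15), 0.669 for Itga4 (0.330 to 1.41) and 0.514 for Itgal (0.270 to 0.993). The last interval alone left out 1. The 6 neutrophil markers that the rule did not use also summed to less, at 28851.5 CPM in WT and 18127.3 CPM in mgR neutrophils. Retnlg made up 1095 of the 1292 WT and 1558 of the 1994 mgR UMIs of these markers. Among them G0s2 alone was higher in the mgR library, at 357.3 and 954.5 CPM. The part of this marker difference in the integrin values was not tested. In the WT library 5 cells held 73.9% of the Itgam UMIs and 68.4% of the Itgal UMIs. Without the 5 cells with most Itgam UMIs in each library the Itgam log2 ratio changed sign, from -0.61 to 0.15. Other Ptprc cells, which held UMIs of 4 of 5 NK cell markers in the WT library and of all 5 in the mgR library, showed lower Itgal (325 and 111 CPM, 0.343, 0.238 to 0.499) and Itgb2 (387 and 214 CPM, 0.553, 0.407 to 0.762). The make-up of this class differed between the libraries. There the NK cell markers summed to 1189 and 707 CPM, the monocyte markers to 539 and 1972 CPM and the dendritic cell markers to 3511 and 6531 CPM. The B cell gene Cd79a stood at 69.1 and 433 CPM and Ms4a1 at 48.4 and 165 CPM, and the part of these cells in the Itgal and Itgb2 values was not tested.

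Over all cells of a library the levels also reflected which cells were present. In such sums, more cells of a type and more RNA per cell cannot be told apart. Itgam was higher over all mgR cells (81.0 and 122 CPM, 1.501, 1.35 to 1.68). With the levels of each class held at their WT values and the classes given their shares of mgR UMIs the ratio was 1.37, and with the class weights held and the levels changed it was 1.05. Itgal was lower (43.5 and 16.4 CPM, 0.378, 0.319 to 0.449), with 0.750 from the classes and 0.570 from the levels. For Itgb7 (40.9 and 29.3 CPM) the classes gave 0.589 and the levels 1.20. For Itgb3 (8.30 and 3.19 CPM) they gave 0.558 and 0.647. Itgb2 over all cells was 118 and 129 CPM (1.09, 0.995 to 1.20).

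The other genes of leukocyte adhesion gave context. They form a list of 52 genes: 10 partner chains, 12 genes of integrin activation and linkage to actin, 9 of receptor-proximal signaling and 21 ligands. In macrophages 42 were counted, with 8 higher and 4 lower in the mgR library (median log2 ratio -0.09, all genes 0.08). In dendritic cells 4 were higher and 7 lower of 33, in T cells 10 and 4 of 33, and in neutrophils 3 and 4 of 23. In macrophages 31.2% of all genes passed the fold, in dendritic cells 39.1%, in T cells 36.8% and in neutrophils 57.7%. The partner Itgb1 was level in macrophages (448 and 451 CPM, 1.01, 0.927 to 1.09), whereas Itgav was lower without reaching the fold (158 and 107 CPM, 0.675, 0.587 to 0.779). Among ligands, Fn1, which encodes fibronectin, a ligand of α4β1, stood at 11.004 and 89.7 CPM in macrophages (8.15, 4.999 to 14.3). Fn1 was higher in the mgR library in every type measured, with 1 and 39 UMIs in dendritic cells, 0 and 26 in T cells, 0 and 16 in neutrophils and 63.9 and 253 CPM in fibroblasts (3.96, 3.27 to 4.82), and the part of free RNA in the leukocyte values was not tested. In macrophages Spp1, which encodes osteopontin, stood at 38.5 and 63.8 CPM (1.66, 1.26 to 2.21). F11r, the gene of the LFA-1 ligand JAM-A, was lower (54.3 and 34.8 CPM, 0.640, 0.503 to 0.823).

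In dendritic cells Rap1a, a GTPase that activates integrins, was higher (160 and 242 CPM, 1.51, 1.14 to 2.05). Cyth1 (0.560, 0.432 to 0.733), Fermt3, the gene of kindlin-3, which binds β tails (0.653, 0.460 to 0.944), and the kinase gene Lyn (0.660, 0.536 to 0.817) were lower. Xcr1 or Clec9a cells were 21.1% of WT and 41.3% of mgR dendritic cells, and their part in these values was not tested. In T cells the adapter gene Fyb was higher (113 and 170 CPM, 1.51, 1.07 to 2.16). Itga1, the α chain of a collagen receptor, and Icam1 also passed the fold there, at 1.92 and 0.603, with intervals that held 1. In neutrophils Tln1, the gene of talin, was lower (737 and 418 CPM, 0.567, 0.355 to 0.916) and Thbs1 higher (290.3 and 573 CPM, 1.97, 1.07 to 3.91), while Lyn (0.574) and Itgb1 (2.10) passed the fold with intervals that held 1. For Itgb1, 26 of the 31 mgR UMIs lay in 1 neutrophil, so that no direction was read.

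The counter-receptors were measured in valve cells too. Vcam1, the ligand of α4β1, was abundant in fibroblasts and lower in the mgR library (1691 and 1007 CPM, 0.595, 0.571 to 0.621, where 26.3% of genes passed the fold in fibroblasts, 14.7% as higher and 11.6% as lower). In endothelial cells it stood at 721 and 633 CPM (0.879, 0.690 to 1.13). Icam1, the ligand of LFA-1 and Mac-1, was lower in macrophages without reaching the fold (307 and 223 CPM, 0.726, 0.657 to 0.803). It stood at 154 and 133 CPM in fibroblasts (0.864, 0.755 to 0.990). In endothelial cells the value was higher in the mgR library, at 38.4 and 96.9 CPM from 4 and 89 UMIs, with an interval that held 1 (2.52, 0.950 to 9.45).

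Likeness of pattern was measured over 14 profiles, the 7 classes in both libraries, as Pearson's r of log2(CPM + 10) among 12421 genes. The profiles share libraries and depth, and r is given as a description. Itgb2 was most like Lcp1 (0.992), the actin-bundling gene of leukocytes, and then Hcls1, Ncf4, Ptpn6 and Cd53. The genes most like Itgam included Cd300a (0.990), Ncf1, Il6ra and Lilrb4a, of which Ncf1 encodes a part of the phagocyte oxidase. Itgax was most like Sh2d1b1 (0.972), Havcr2, Csf2rb2, Amz1 and Fgd2, and Itgal most like Mbp (0.956), Fam107b, Samsn1, Spn and Fmnl1. The gene most like Itga4 was Itgb2 itself (0.971), ahead of Coro1a, Lcp1, Cd52 and St8sia4.

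Itgb7 was most like Klrk1 (0.987), which encodes the receptor NKG2D, and then P2ry10, Nup210, Crem and Rps27a. Itgae was most like Gpr171 (0.980), Palb2, Cdh1 (0.978), Epcam and Tmem50b. Cdh1 encodes E-cadherin, the ligand of αEβ7, and stood at 23.2 and 25.1 CPM in dendritic cells from 8 and 37 UMIs. Itgb3 was most like Clcn3 (0.965), Il27ra, Tex2, St6galnac3 and Cpm, and Itgb8 most like the fibroblast-class genes Aard (0.997), Aoc3, Gabra3, Dgkb and Paqr6. Among members, the β2 chain was closer to Itga4 (0.971) than to its own partners Itgam (0.840), Itgal (0.812) and Itgax (0.621), each of which followed a part of the leukocytes.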

How the data were processed

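The deposited count matrices hold UMI counts per gene and cell barcode, made by the authors with Cell Ranger 7.1.0 on mm10 according to the submitters' processing notes. The gene annotation used and the treatment of intronic reads are not given in the sources used here. From 1104 WT and 3802 mgR barcodes, cells with 200 to 5000 genes and at most 10% mitochondrial UMIs were kept (875 and 3438). Total UMIs were 5381844 and 28215539. Types were set by marker UMIs as given above. Doublets were not removed beyond the gene limit and the rule of 1 type per cell. Scrublet (scanpy 1.11.5) marked 7 and 51 cells, left out in an alternative.

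Sums of UMIs were taken within each type of a library. Intervals are exact 95% Poisson, Clopper-Pearson and conditional binomial (scipy 1.17.1). Reads of 1 library are not replicates, so no test was made. Medians of log2 ratios added 0.5 UMI to each count. The scripts were tested on simulated data. The integrin genes and all lists were chosen with earlier results of these data known. Named besides the 9 genes were the 5 genes most alike to each with at least 50 UMIs, up to 4 adhesion genes past the fold per type with most UMIs, and Itgb1, Itgav, Icam1 and Vcam1. Some genes that this rule names are not reported here. Cdh1 was named with its values after they were seen. Gene positions came from GENCODE M21 and promoters from RefSeq.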

Additional observations from a re-analysis of the deposited data

Results flagged for a closer look

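Itgae differed in opposite directions by type. In dendritic cells the ratio of mgR to WT was 1.73 (28 and 207 UMIs), and in T cells it was 0.275 (12 and 8 UMIs). The intervals, 1.16 to 2.66 and 0.0974 to 0.731, cover counting error only, and the difference between the types was not tested.

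Over all cells of a subset, Itgam differed in opposite directions by macrophage subset. In cells with no UMI of Lyve1, Folr2 and Cd163 the ratio was 1.66 (80 and 622 UMIs), and in cells with at least 2 such UMIs it was 0.843 (172 and 2153 UMIs). In Xist-only cells these ratios were 1.69 (1.14 to 2.60) and 1.21 (0.846 to 1.78), and in Y-only cells 1.40 (0.964 to 2.06) and 0.697 (0.562 to 0.871). The difference between the subsets was not tested.

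Barcodes outside the limits on genes and mitochondrial UMIs also held integrin UMIs. In the WT library 229 such barcodes held 12 UMIs of the 9 genes, 14.9 CPM, where 3 counts correspond to 3.73 CPM. In the mgR library 364 held 107 UMIs, 69.6 CPM, where 3 counts correspond to 1.95 CPM. Of the latter, 36 were of Itga4, 23 of Itgam, 18 of Itgb2 and 17 of Itgax.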

How the results depend on the processing

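With 1 library per genotype no replicate could be left out. No paired analysis was possible because each genotype has a single library and no result comes from a test. The numbers of genes past the fold were 3 in macrophages, 1 in dendritic cells, 2 in T cells and 2 in neutrophils. Thinning to 2000 UMIs gave 3 in dendritic cells, 1 in T cells and 4 in neutrophils. In neutrophils the number was 4 scaled by the median gene ratio, 4 with cells counted in every type whose rule they met, 1 with the mean of per-cell fractions, 1 without cells marked by Scrublet and 0 without the 5 cells with most UMIs of the gene. In dendritic cells it was 0 with rule thresholds halved, 2 without those 5 cells, and 2 in Xist-only or Y-only cells. In macrophages it was 1 in Y-only cells and 5 with no filter on UMIs, where the median log2 ratio was -0.91 instead of 0.04. The log2 ratio of Itgam in neutrophils, -0.61, became 0.15 without the 5 cells and 0.36 in Y-only cells. Of the orders of types that were past the fold, 3 turned, all with neutrophils. They were Itga4 in the WT library against dendritic cells without the 5 cells (-1.14), and Itgam against macrophages in Xist-only mgR cells (-1.32) and in Y-only WT cells (-0.28). Orders short of the fold were not counted as turned. The cause was not tested. Of the ratios recomputed, 235 stayed within their counting interval, 22 moved outside it and 2 were counted as changed in sign. A change of sign was counted only for ratios past the fold in the main analysis. Ratios nearer 1 also changed sign without being counted, such as Itgam in macrophages, at 1.15 over all cells and 0.904 in Y-only cells. Macrophage subsets set at 2000 UMIs per cell, an alternative chosen after seeing the data, gave a lower Itgal log2 ratio (-1.75) in cells with none of the 3 genes.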

Other observations

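A smaller group of cells held integrin UMIs as well. Cells with at least 2 UMIs of the NK cell markers, counted outside the 4 types, were 4 in the WT and 8 in the mgR library, and the latter held 34 UMIs of Itga4, 16 of Itgal, 16 of Itgb2 and 15 of Itgb7.

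Within macrophages that lacked UMIs of Lyve1, Folr2 and Cd163, the Itga4 ratio of mgR to WT was 1.15 (0.796 to 1.73) in Xist-only cells and 3.34 (1.87 to 6.47) in Y-only cells, the latter from 13 and 103 UMIs.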
